A study of Mus musculus with 4 samples.

Results

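Chemokine ligands are small secreted proteins, or in a few cases membrane-bound ones, that direct the movement of leukocytes through G-protein-coupled receptors on those cells. CC ligands mainly act on monocytes, macrophages, eosinophils and lymphocytes, CXC ligands with an ELR motif act on neutrophils, and the interferon-inducible CXC ligands act on activated T cells and NK cells. In the heart, the CCR2 ligands are best known for recruiting monocytes after injury or pressure overload, whereas CXCL12 is produced constitutively by the tissue. The chemokine ligand genes were chosen by their mouse symbols (Ccl and Cxcl followed by a number, Cx3cl1, Xcl1, Pf4 and Ppbp), a rule that uses no measured value, although the family was taken up with earlier results of these data known. Of 46 reference symbols that match, 36 had a probe on the array, out of 21762 named genes with a probe. No matched probe was found for Ccl21a, Ccl21b, Ccl21c, Ccl21d, Ccl27b, Cxcl11, Ccl16-ps, Ccl19-ps1, Ccl19-ps2 and Ccl19-ps3, which were not analysed here.

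Total RNA of whole hearts from male mice (C57BL/6J per the methods) was hybridized to 4 one-color arrays, 1 for each of sham at 2 weeks, TAC at 2 weeks, sham at 8 weeks and TAC at 8 weeks after surgery. TAC, or transverse aortic constriction, narrows the aorta and imposes pressure overload on the left ventricle, and sham mice had the operation without the constriction. The labels give an age of 10 weeks for both 2-week groups and 16 weeks for both 8-week groups, while the methods state an older age at surgery than these labels imply. Each array held RNA pooled from several mice, so the variation among mice is unknown, no test was run, and every change compares 2 pools.

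The level of a gene is the processed signal of its brightest probe divided by the 75th percentile of all probes on that array, which lay between 206.0 and 248.5 signal units. Between 67.2% and 70.1% of the genes were well above background on an array, no spot was saturated, and all 4 arrays lay on 1 slide and in 1 scan. A gene was called higher or lower when the 2 levels differed by over 2-fold and the brighter one was well above background. Values given after ± are the scanner software's error of the 2 signals on the log2 scale, which does not cover mice. For bright probes such as that of Myh6 this error stood at 10.0% of each signal, or 0.20 on a log2 ratio. A value near ± 0.20 is thus not a measured spread of spots. Among 399 probes printed in 10 spots, the log2 ratio of 2 spots of one probe had an SD of 0.171 where the signal was well above background and of 0.318 where it was also below 0.25 of the 75th percentile. All 5 cardiomyocyte markers were well above background on every array, and all 5 hypertrophy genes (Nppa, Nppb, Myh7, Acta1 and Ankrd1) were called higher after TAC at both times, as the labels imply. In RNA of whole hearts, a change in the number of cells of a type and a change in RNA per cell cannot be told apart.

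Of the 36 chemokine ligand genes, 21 were well above background on all 4 arrays, 3 on some arrays and 12 on none. The 12 were Ccl1, Ccl3, Ccl20, Ccl22, Ccl28, Cxcl2, Cxcl3, Cxcl5, Cxcl13, Cxcl15, Cxcl17 and Xcl1, and none of them could be called. Between 22 and 23 of the genes were well above background on each array.

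At 8 weeks after TAC, 5 of the 36 genes were called higher than in sham hearts (13.9%, against 2.35% of all genes), namely Ccl8, Ccl12, Ccl5, Cxcl10 and Ccl17. Only Ccl11 was called lower (2.78%, against 1.48% of all genes). Without scaling between arrays the same genes were called, and of all genes 3.09% were then higher and 1.11% lower. At 2 weeks, Ccl4 was called higher (2.78%, against 1.74% of all genes), and Ccl11 and Ccl26 were called lower (5.56%, against 0.859% of all genes). Ccl11 was thus called lower at both times, as were 0.17% of all genes (37 genes), and no chemokine ligand gene was called higher at both times, where 0.561% of all genes were. With so few genes, 1 gene moves these shares by 2.78 percentage points. The 5 calls at 8 weeks did not persist under normexp background correction with an offset of 50 signal units, which shrinks ratios of dim spots and left 0 of the 36 genes and 0.639% of all genes called higher. Ccl26 carries a doubt that is described with its values.

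**Figure D1:**
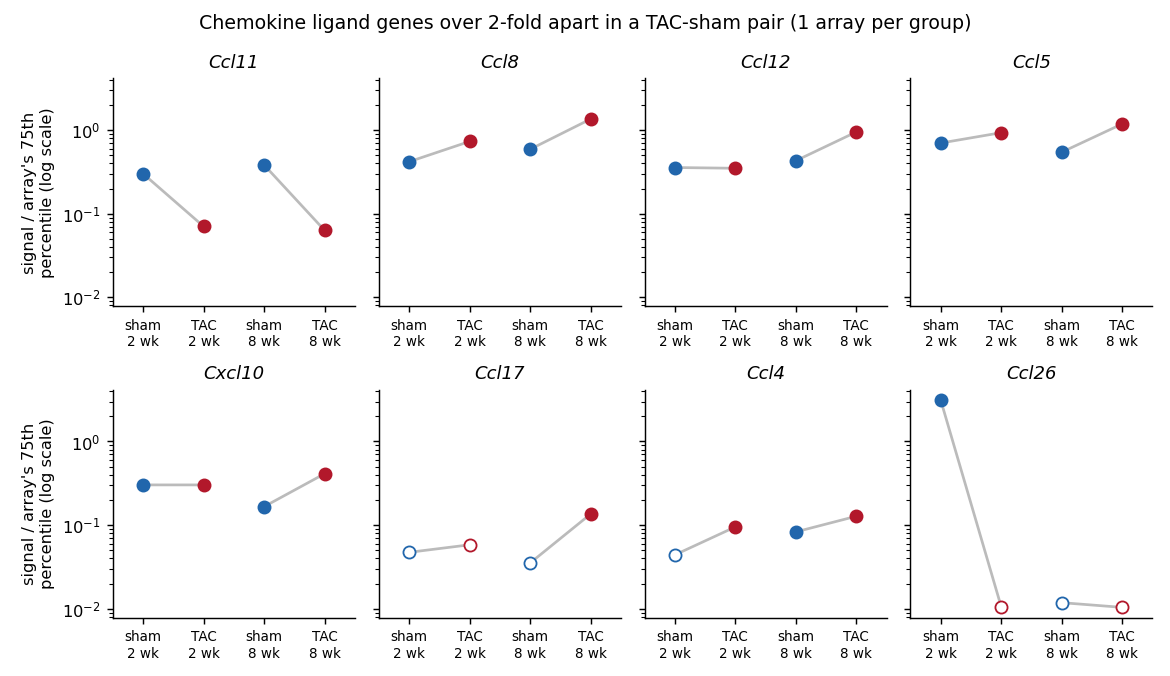
Level of the 8 chemokine ligand genes called in a TAC-sham pair, as signal over the array's 75th percentile on a log axis, with 1 array per group, sham in blue and TAC in red. Open points were not well above background. Ccl11 lay lower on both TAC arrays (0.0704 and 0.0631) than on both sham arrays (0.301 and 0.382), and Ccl8 lay higher on both TAC arrays (0.731 and 1.35) than on both sham arrays (0.418 and 0.589).

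The changes ran in both directions. Over the 21 genes well above background on all arrays, the median log2 change after TAC was -0.09 at 2 weeks (8 positive, 13 negative) and 0.14 at 8 weeks (12 positive, 9 negative), compared with -0.01 at either time over the 14295 genes of the array measured on all 4 arrays. Both TAC arrays lay above both sham arrays for 5 of the 21 genes (Ccl5, Ccl8, Ccl9, Cx3cl1 and Cxcl16), or 23.8%, and this was also the share of all genes, 23.8%. Both TAC arrays lay below both sham arrays for 4 genes (Ccl11, Ccl19, Cxcl12 and Cxcl14), or 19.0%, against 25.7% of all genes. The 2 sham pools, which differ in age and time after surgery, give a scale for these values. Between them the log2 difference of the 21 genes ran from -0.86 (Cxcl10) to 0.68 (Ccl7). The sign of such a difference depends on which pool comes first, so sizes are compared here. The changes of Ccl11 at both times and of Ccl8, Ccl12, Ccl5 and Cxcl10 at 8 weeks exceeded the largest sham difference, that of Cxcl10. These are the changes already called at over 2-fold. The sham difference lies under 2-fold, so any call exceeds it and the comparison adds no separate support. All other changes of the 21 genes after TAC were smaller than the sham difference, with Cxcl14 (-0.83) and Ccl8 (0.81) at 2 weeks close to it. For Cxcl10 the sham difference and the 8-week change share the sham 8-week array.

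**Figure D2:**
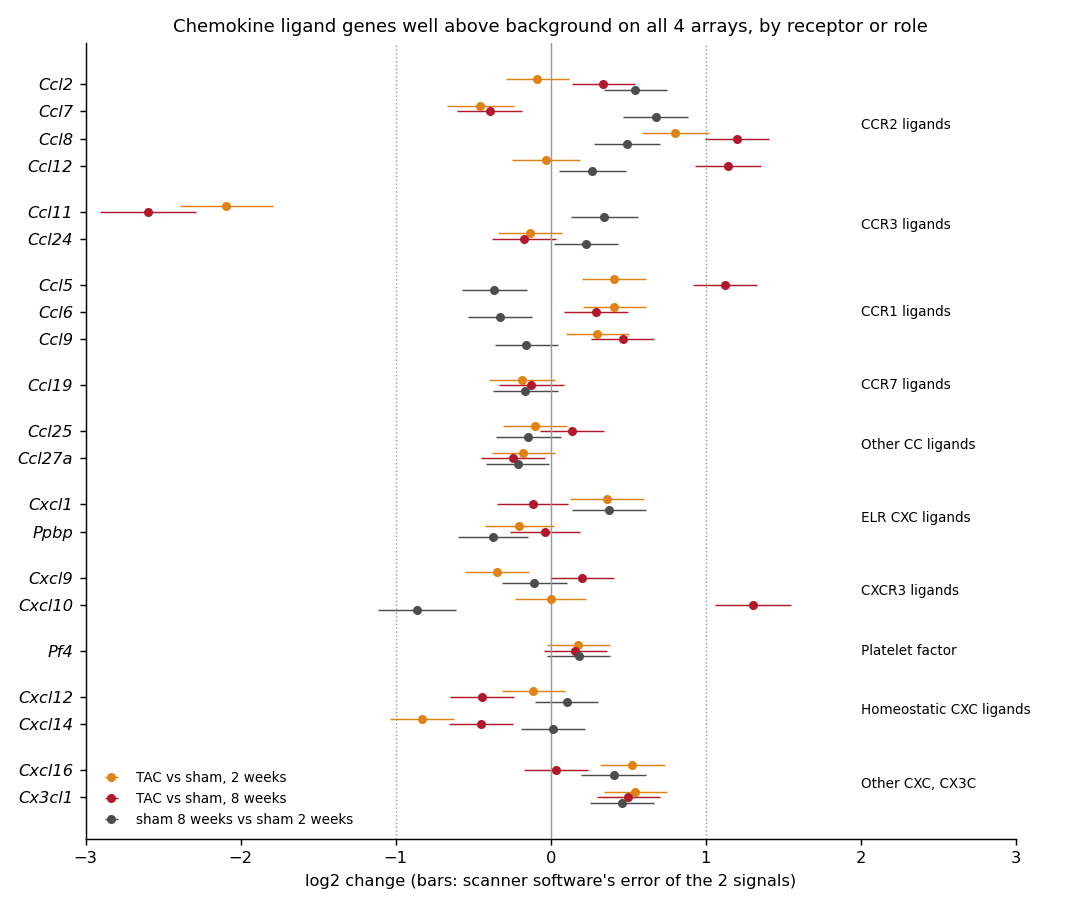
Log2 change of the 21 genes well above background on all arrays, grouped by receptor or role, for TAC against sham at 2 weeks (orange) and 8 weeks (red) and for the sham pools against each other (grey). Bars are the scanner software's error of the 2 signals and dotted lines mark 2-fold. Ccl11 stands apart at -2.09 and -2.60, and 4 genes lie beyond 2-fold on the right at 8 weeks.

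The CCR2 ligands attract monocytes that carry the receptor CCR2, and all 4 (Ccl2, Ccl7, Ccl8 and Ccl12) were well above background on every array. At 8 weeks 2 of the 4 were called higher (against 2.35% of all genes), and at 2 weeks none was (against 1.74%). A list of 4 genes, drawn up with earlier results of these data known, gives no share to set against these. Ccl8, also called MCP-2 and reported in mice to act on CCR8 as well, had a level of 0.418 in sham and 0.731 in TAC hearts at 2 weeks, and of 0.589 in sham and 1.35 in TAC hearts at 8 weeks. Both TAC arrays were above both sham arrays. The log2 change was 0.81 ± 0.21 at 2 weeks (1.75-fold) and 1.20 ± 0.21 at 8 weeks (2.30-fold). Ccl12, or MCP-5, a close relative of Ccl2 in mice, had levels of 0.357 and 0.350 in sham and TAC hearts at 2 weeks, and at 8 weeks 0.431 and 0.952. A single array, TAC at 8 weeks, was high, and the other arrays lay close together. The log2 change was -0.03 at 2 weeks and 1.14 ± 0.21 at 8 weeks (2.21-fold).

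Ccl8 and Ccl12 are neighbors on chromosome 11. In the GRCm38.p6 assembly Ccl12 spans chr11:82101845-82103399 and Ccl8 spans chr11:82115185-82116799. Their promoters, from 250 bases before to 50 bases after the transcription start, are shown here. Of the 8 genes called in a TAC-sham pair, 4 had a promoter sequence in the reference used, namely Ccl12, Ccl8, Ccl17 and Cxcl10. No sequence was available for Ccl4, Ccl5, Ccl11 and Ccl26. The sequences are from RefSeq on GRCm38.p6, the plus strand of chr11:82101595-82101894 for Ccl12 and of chr11:82114935-82115234 for Ccl8. Capitals mark motif matches. The motifs searched on both strands were the interferon-stimulated response element (GAAA, any 2 bases, GAAA), a STAT site (TTC, any 3 bases, GAA), a STAT6 site (TTC, any 4 bases, GAA), AP-1 (TGANTCA), the TATA box (TATAAA) and kappaB.
Ccl12: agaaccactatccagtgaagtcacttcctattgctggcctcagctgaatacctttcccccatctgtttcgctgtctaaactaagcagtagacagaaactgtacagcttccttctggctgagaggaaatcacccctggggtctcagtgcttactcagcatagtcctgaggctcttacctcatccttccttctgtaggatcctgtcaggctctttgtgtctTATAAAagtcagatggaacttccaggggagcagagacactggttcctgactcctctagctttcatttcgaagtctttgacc
Ccl8: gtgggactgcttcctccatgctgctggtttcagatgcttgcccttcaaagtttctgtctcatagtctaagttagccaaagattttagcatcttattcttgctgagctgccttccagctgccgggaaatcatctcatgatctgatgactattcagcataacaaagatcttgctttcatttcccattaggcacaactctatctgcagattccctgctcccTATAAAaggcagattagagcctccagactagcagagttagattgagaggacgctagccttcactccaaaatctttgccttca
The one match in each promoter was TATAAA, at position -31 from the start in Ccl12 and at -32 in Ccl8. Of 32851 mouse promoters of this length, 13.6% hold this motif, as do 10 of the 29 promoters of the 26 chemokine ligand genes that have an entry. A match describes letters and is not evidence of a bound site.

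Ccl2, or MCP-1, the prototype CCR2 ligand, was printed in 10 spots per array. Its level was 1.03 in sham and 0.973 in TAC hearts at 2 weeks, and 1.51 in sham and 1.91 in TAC hearts at 8 weeks. Its spots ranged from 0.899 to 1.21, from 0.800 to 1.13, from 1.39 to 1.67 and from 1.68 to 2.07 in the same order. The 8-week arrays did not overlap with the 2-week arrays, and sham and TAC at 8 weeks were just apart, whereas sham and TAC at 2 weeks overlapped. The spots of an array repeat 1 pool, so these ranges do not cover mice. The log2 change after TAC was -0.09 at 2 weeks and 0.34 at 8 weeks, below the 2-fold threshold. Ccl7, or MCP-3, had a negative change at both times, -0.45 at 2 weeks (0.463 in sham and 0.338 in TAC hearts) and -0.39 at 8 weeks (0.740 and 0.563). Between the sham pools its log2 difference was 0.68, and it was higher at 8 weeks than at 2 weeks in sham as in TAC hearts. The receptor gene Ccr2 had 2-week levels of 0.101 and 0.188 and 8-week levels of 0.0779 and 0.0981, with log2 changes of 0.90 and 0.33.

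The eotaxins act on CCR3, the receptor that defines eosinophil recruitment. Ccl11, or eotaxin-1, had the most negative change of the 21 genes at both times. Its level was 0.301 in sham and 0.0704 in TAC hearts at 2 weeks, and 0.382 in sham and 0.0631 in TAC hearts at 8 weeks. Both TAC arrays were well below both sham arrays, and all 4 were above background. The log2 change was -2.09 ± 0.30 at 2 weeks (4.27-fold lower) and -2.60 ± 0.31 at 8 weeks (6.05-fold lower), while the sham pools differed by 0.35 ± 0.22 and the TAC pools by -0.16 ± 0.37. None of the 24 spots around its own was called in either pair. Under normexp the log2 change was -0.87 at 2 weeks, short of 2-fold, and -1.15 at 8 weeks. The gene lies at chr11:82057832-82062955 on GRCm38, between Ccl7 and Ccl12.

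Ccl24, or eotaxin-2, had levels of 0.758, 0.692, 0.889 and 0.791 in sham and TAC hearts at 2 weeks and sham and TAC hearts at 8 weeks, with log2 changes of -0.13 and -0.17. The difference called in Ccl11 was not called in this other eotaxin. The receptor gene Ccr3 was well above background in TAC hearts at 2 weeks alone, with levels between 0.0464 and 0.0695. Of 4 eosinophil markers with a probe, the granule genes Epx and Prg2 were well above background on no array, and none was called after TAC. The summed level of the list was between 0.361 and 0.402 on all arrays, most of which came from Il5ra at 0.296 to 0.323.

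Ccl26, named after human eotaxin-3, has a probe whose values need a separate account. Its level was 3.12 in sham hearts at 2 weeks, 0.0106 in TAC hearts at 2 weeks, 0.0118 in sham hearts at 8 weeks and 0.0104 in TAC hearts at 8 weeks, and only the first was well above background. This gave at least 64.4-fold lower in TAC hearts at 2 weeks, and at least 57.8-fold lower in sham hearts at 8 weeks than in sham hearts at 2 weeks. Of the 23 spots within 2 rows and 2 columns of it on the array, 10 were also over 4-fold brighter on the sham 2-week array than on every other array. Around the other called genes, at most 1 neighboring spot was called in the same direction. The part of this spatial pattern in the value was not tested. Without Ccl26, 1 gene was called lower at 2 weeks (Ccl11, against 0.855% of all genes) and 0 between the sham pools (against 0.717%).

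The ligands of CCR1 attract monocytes, macrophages and T cells. Ccl5, or RANTES, a product of T cells, macrophages and platelets, had levels of 0.701 in sham and 0.932 in TAC hearts at 2 weeks, and of 0.545 in sham and 1.19 in TAC hearts at 8 weeks. The TAC array at 8 weeks was highest and the sham array at 8 weeks was lowest. The log2 change was 0.41 at 2 weeks and 1.12 ± 0.21 at 8 weeks (2.18-fold). Ccl6, a mouse CCR1 ligand made by macrophages, was among the 5 brightest genes of the family, with 5.11 and 6.80 at 2 weeks and 4.07 and 4.99 at 8 weeks. Its log2 change was 0.41 and 0.29, and Ccl9, another CCR1 ligand, had 0.30 and 0.46, all under 2-fold. TAC exceeded sham at both times in all 3 of these genes.

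Ccl4, or MIP-1β, was dim. Its level was 0.0440 in sham hearts at 2 weeks, not well above background, and 0.0952 in TAC hearts at 2 weeks, 0.0830 in sham hearts at 8 weeks and 0.128 in TAC hearts at 8 weeks. The log2 change of 1.11 ± 0.62 at 2 weeks gives at least 1.59-fold against the lowest level above background, and that at 8 weeks was 0.62 ± 0.36 (1.54-fold). The neighboring Ccl3, or MIP-1α, was well above background on no array. The receptor gene Ccr1 was well above background on no array either.

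The CCR4 ligands attract regulatory and type 2 helper T cells. Ccl17, or TARC, was well above background in TAC hearts at 8 weeks alone, with 0.0472 in sham and 0.0581 in TAC hearts at 2 weeks, and 0.0351 in sham and 0.135 in TAC hearts at 8 weeks. The log2 change at 8 weeks was 1.95 ± 0.59, at least 2.51-fold, and TAC hearts at 8 weeks were at least 2.33-fold above those at 2 weeks. With normexp its log2 change was 0.32. Ccl22, the other CCR4 ligand, and Ccr4 itself were well above background on no array.

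Ccl17 and Cxcl10 had the largest increases called at 8 weeks, and cytokine-response motifs are described in both gene families. Their promoters, those of the remaining called genes with a sequence, are shown here. They are from RefSeq on GRCm38.p6, the plus strand of chr8:94810203-94810502 for Ccl17, whose annotated gene begins upstream of this start, and the minus strand of chr5:92348840-92349139 for Cxcl10. Capitals again mark the motif matches, and all are on the strand printed.
Ccl17: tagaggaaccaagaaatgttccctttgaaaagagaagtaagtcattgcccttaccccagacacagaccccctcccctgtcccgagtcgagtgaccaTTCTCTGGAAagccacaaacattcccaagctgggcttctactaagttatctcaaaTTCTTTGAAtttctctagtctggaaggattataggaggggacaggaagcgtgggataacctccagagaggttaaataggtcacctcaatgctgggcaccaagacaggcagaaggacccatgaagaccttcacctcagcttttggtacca
Cxcl10: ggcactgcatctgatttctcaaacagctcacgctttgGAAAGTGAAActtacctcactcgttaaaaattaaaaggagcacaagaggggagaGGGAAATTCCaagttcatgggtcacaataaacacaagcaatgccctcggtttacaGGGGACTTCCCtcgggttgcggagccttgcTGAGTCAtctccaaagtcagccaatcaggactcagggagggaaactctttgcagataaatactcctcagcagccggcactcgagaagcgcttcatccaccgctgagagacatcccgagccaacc
In Ccl17 the matches were the STAT6 pattern at -154 and the STAT pattern at -99, which occur in 6.95% and 8.30% of the 32851 promoters. In Cxcl10 they were the interferon-stimulated response element at -213 (3.44% of promoters), kappaB at -159, -104 and -103, of which the last pair overlap and are printed as 1 run (8.46%), and AP-1 at -74 (7.81%). Among the 29 chemokine ligand promoters, 8 held kappaB, 6 AP-1, 3 the interferon-stimulated response element, 2 the STAT pattern and 1 the STAT6 pattern.

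Cxcl9 and Cxcl10 are the interferon-inducible ligands of CXCR3. Cxcl10, or IP-10, had a level of 0.302 in both sham and TAC hearts at 2 weeks, 0.166 in sham hearts at 8 weeks and 0.412 in TAC hearts at 8 weeks. The 8-week difference holds both the lowest and the highest array. Its log2 change was 0.00 at 2 weeks and 1.31 ± 0.24 at 8 weeks (2.48-fold), while the sham pools differed by -0.86 and the TAC pools by 0.45. Cxcl9, or MIG, had levels of 0.829, 0.653, 0.771 and 0.886, with log2 changes of -0.34 and 0.20, and its second probe gave -0.07 and -0.28. The receptor gene Cxcr3 was dim, with 0.0609 and 0.120 at 2 weeks and 0.0560 and 0.125 at 8 weeks, and was called higher at 8 weeks, at least 2.23-fold. Ifng, the classical inducer of both ligands, was well above background on no array.

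The ELR CXC ligands recruit neutrophils through CXCR2. Of 6 genes only Cxcl1 and Ppbp were well above background, and neither was called. Cxcl1, or KC, had levels of 0.176, 0.226, 0.228 and 0.210, with log2 changes of 0.36 and -0.12, and Ppbp, the platelet basic protein, had -0.20 and -0.03. Cxcr1 and Cxcr2 were well above background on no array. The neutrophil markers S100a8, S100a9 and Retnlg were called higher after TAC at both times, as were 0.561% of all genes. Retnlg was not well above background in sham hearts at either time, and its fold was at least 1.04 at 2 weeks and 2.31 at 8 weeks. S100a8 differed by 2.16-fold in the 2-week pair and by 4.51-fold in the 8-week pair. The other neutrophil markers Ly6g, Mpo and Elane were not called, and Ngp was well above background on no array. The summed level of the 7 genes was 10.6 and 12.5 at 2 weeks and 9.49 and 12.6 at 8 weeks. Most of it came from Elane at 6.77 to 7.42.

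Cxcl12, Pf4 and Cxcl14 had the highest mean signal of the family, and none of them was called. Cxcl12, or SDF-1, which acts on CXCR4 and on the scavenger ACKR3, had a level of 37.1 in sham and 34.3 in TAC hearts at 2 weeks, and of 39.8 in sham and 29.3 in TAC hearts at 8 weeks. Both TAC arrays were below both sham arrays. The log2 change was -0.11 and -0.44, and a second probe gave -0.07 and -0.32. Cxcl14, or BRAK, a ligand expressed by stromal and epithelial cells, had 6.97 and 3.92 at 2 weeks and 7.04 and 5.16 at 8 weeks. The 2 sham pools were nearly equal and both TAC pools were lower, by -0.83 ± 0.20 at 2 weeks (1.78-fold) and -0.45 ± 0.20 at 8 weeks (1.37-fold), without passing 2-fold.

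Pf4, or CXCL4, is stored in platelets and is also expressed by tissue macrophages. Its level was 13.3 and 15.0 in sham and TAC hearts at 2 weeks and 15.0 and 16.8 at 8 weeks, with log2 changes of 0.18 and 0.16. The sham pools differed by as much, 0.18. Of 6 platelet or megakaryocyte markers, Gp1ba and Gp5 were well above background on no array, none was called, and the summed level of the list lay between 0.679 and 0.827. Of 9 macrophage or monocyte markers with a probe none was called after TAC, with median log2 changes of 0.37 and 0.36 and a summed level between 186 and 194, most of which came from the Itgam probe at 144 to 151.

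Ccl27a, a CCR10 ligand of epithelia, completed the 5 brightest genes with 3.91 and 3.46 at 2 weeks and 3.38 and 2.85 at 8 weeks. Its log2 change was -0.18 and -0.24, and its 3 probes gave values from -0.15 to -0.29 at 2 weeks and from -0.04 to -0.51 at 8 weeks. Ccl19, the CCR7 ligand of lymphoid tissue, had levels of 0.499, 0.439, 0.446 and 0.409. All 3 of its probes were lower after TAC at both times, by less than 2-fold. Ccl25, the CCR9 ligand of thymus and gut, had log2 changes of -0.10 and 0.14.

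Cx3cl1, or fractalkine, and Cxcl16 are the membrane-anchored ligands of CX3CR1 and CXCR6. Cx3cl1 had a level of 1.36 in sham and 1.98 in TAC hearts at 2 weeks, and of 1.87 in sham and 2.65 in TAC hearts at 8 weeks. TAC exceeded sham at each time, by 0.55 and 0.50 on the log2 scale, and the sham pools differed by 0.46. Its receptor gene Cx3cr1 had 0.851 and 1.80 at 2 weeks, a 2.11-fold difference that was called, and 0.582 and 0.972 at 8 weeks (1.67-fold). Cxcl16 had log2 changes of 0.53 and 0.03, and Cxcr6 of 0.47 and 0.62.

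Of 22 chemokine receptor genes examined, 11 were well above background on all arrays and 7 on none. At 2 weeks 2 of the 22 were called higher (Cx3cr1 and Ackr2), against 1.74% of all genes. At 8 weeks 2 of the 22 were (Cxcr3 and Ackr4), against 2.35% of all genes. At neither time was one called lower, where 0.859% and 1.48% of all genes were. Over the 11 genes the median log2 change was 0.47 at 2 weeks and 0.37 at 8 weeks, and between the sham pools it was -0.35. Over the 14295 genes measured on all arrays these medians were -0.01, -0.01 and 0.02. Ackr2, a scavenger of inflammatory CC chemokines, had levels of 0.498 and 1.09 at 2 weeks (2.18-fold) and 0.561 and 0.779 at 8 weeks. Ackr4, a scavenger of CCL19, CCL21 and CCL25, had 0.266 and 0.383 at 2 weeks and 0.256 and 0.545 at 8 weeks (2.13-fold).

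**Figure D3:**
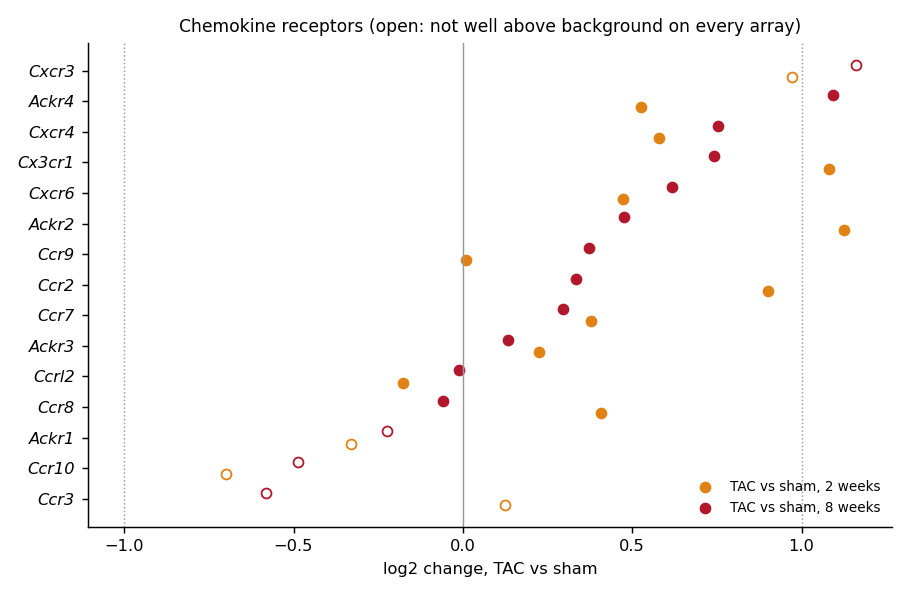
Log2 change after TAC at 2 weeks (orange) and 8 weeks (red) for the 15 of these receptor genes well above background on at least 1 array, with open points for genes not so on every array and dotted lines at 2-fold. The 11 genes measured on every array have medians of 0.47 and 0.37, and none of the 15 lies below the lower 2-fold line.

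Among 13 genes of known chemokine inducers and their signaling, 7 were well above background on all arrays, and Tnf, Ifng, Il4 and Il13 on none. Only Il6 of the 13 was called, higher at 8 weeks by at least 1.32-fold, against 2.35% of all genes. Stat6, through which IL-4 and IL-13 induce Ccl11 and Ccl17, had log2 changes of -0.01 and -0.03, and Nfkbia, a target of NF-κB, had 0.15 and 0.35. The 6 fibroblast markers, of a cell type that also makes chemokines, had median log2 changes of 0.60 and 0.67. Only Col1a1 of them was called, higher at 8 weeks (2.30-fold, against 2.35% of all genes). Tcf21 had 0.07 and -0.55 and was the only one lower at 8 weeks, and Dcn had 0.18 and 0.28. The summed level of this list was 198 and 265 at 2 weeks and 223 and 315 at 8 weeks, most of which came from Dcn at 143 to 203. Of 7 T or NK cell markers, 5 were well above background on no array and Cd3d was called higher at 2 weeks, against 1.74% of all genes. Cd3d was not well above background in sham hearts there, and its fold was at least 1.31. Cd3e, the only one of the 7 well above background on all arrays, had log2 changes of 0.05 and -0.16. The part of these cell types in the chemokine values was not tested.

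On chromosome 11 lie 11 of the CC ligand genes, and adjacent genes there differed in direction. From Ccl2 onward, the order is Ccl7, Ccl11, Ccl12, Ccl8 and Ccl1 within 141 kb, and then Ccl5, Ccl9, Ccl6, Ccl3 and Ccl4 from 1490 kb on. Ccl11, which was called lower at both times, starts 22.3 kb from Ccl2, and Ccl12, which was called higher at 8 weeks, starts at 66.3 kb.

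**Figure D4:**
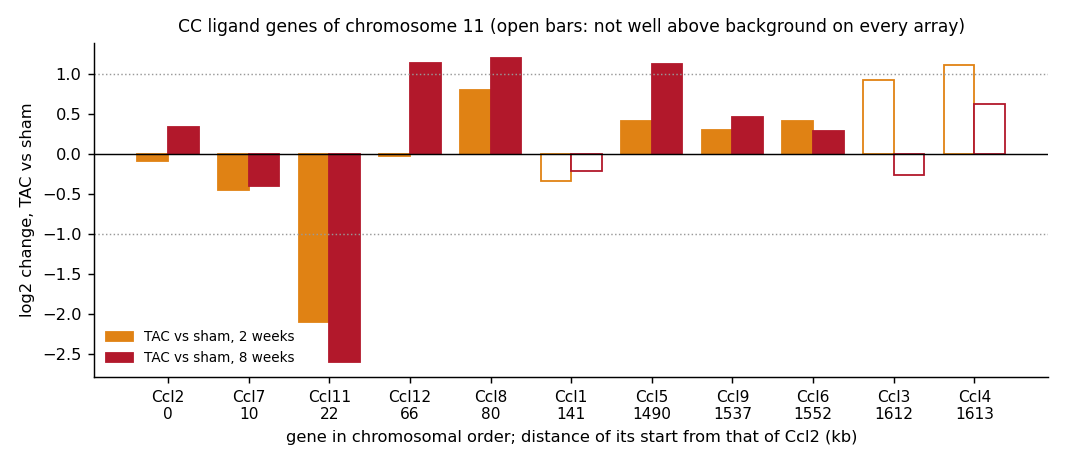
Log2 change after TAC at 2 weeks (orange) and 8 weeks (red) for the 11 CC ligand genes of the chromosome 11 clusters in chromosomal order, with the distance of each start from that of Ccl2 in kb (GRCm38). Open bars mark genes not well above background on every array. Ccl11 at -2.09 and -2.60 stands between Ccl7 at -0.45 and -0.39 and Ccl12 at -0.03 and 1.14.

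The remaining pairs of arrays compare time points within a treatment and share their arrays with the pairs above. Between the sham pools, 0 genes were called higher at 8 weeks (against 1.17% of all genes) and Ccl26 was called lower (2.78%, against 0.721%). Between the TAC pools, Ccl12 and Ccl17 were called higher at 8 weeks (5.56%, against 1.19%) and 0 were called lower (against 1.25%). Both 8-week arrays lay above both 2-week arrays for Ccl2, Ccl7, Ccl12, Ccl24 and Pf4, or 23.8% of the 21 genes, against 20.6% of all genes. Ccl12 was higher by 1.44 on the log2 scale in TAC hearts and by 0.27 in sham hearts, Ccl2 by 0.97 and 0.55, and Ccl7 by 0.74 and 0.68.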

How the data were processed

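RNA pools of sham and TAC hearts were hybridized to Agilent SurePrint G3 Mouse arrays, 1 per group, and the authors deposited scanner files made with Feature Extraction 10.7.3.1 (file header; the submitters' processing notes name 9.1). The deposited processed signal gives the intensity of each spot after background and spatial correction, with no normalization between arrays, and flags mark spots well above background. The authors' series table holds the same intensity multiplied by a constant per array (medians 101.2, 106.3, 103.7 and 97.2), on a linear scale. What set the constants is not given in the sources used here.

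Outlier spots were left out, log2 signals of a probe's spots were averaged, and the array's 75th percentile over 55681 probes was subtracted. The files name probes by accession on an mm9 design. Of 32342 probes with a RefSeq or Ensembl accession, 29501 matched a symbol, and the brightest probe stood for a gene. Gene positions and promoters are RefSeq's on GRCm38, and none was converted. A fold against a level not well above background was taken against the higher of that level and the lowest one well above background on that array, and is written as "at least". The symbol rule uses no measured value, but the gene family, the role lists and the marker lists were chosen with earlier results of these data known. Every gene called in a TAC-sham pair and the 5 with the highest mean signal were described in full, the others by role. A receptor gene and a signaling gene of the lists are not reported here. The alternatives were quantile, median or no scaling, normexp (limma 3.58.1, R 4.3.3), the series table, other filters on dim probes, outlier spots kept, folds of 1.5 and 3, and the mean of a gene's probes. The steps were tested on simulated data. Python 3.11.15 with pandas 2.3.3 and numpy 2.4.6 was used. The number of pools limits the precision.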

Additional observations from a re-analysis of the deposited data

Results flagged for a closer look

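Among the 21 chemokine ligand genes measured on all arrays, Cxcl9 alone differed after TAC in opposite directions at the 2 time points by more than the spot noise (SD of 0.171) each time, lower at 2 weeks and higher at 8 weeks. The log2 change at 8 weeks minus that at 2 weeks was 0.54. With 1 array per group this difference was not tested, and the second probe of the gene was lower after TAC at both times (-0.07 and -0.28).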

How the results depend on the processing

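Each setting was changed alone, which gave 963 values. Of these, 871 moved by less than the spot noise (counts, by less than 1.5 times), 92 moved further and 0 changed the sign of a called value. Many of them could hardly move, so these counts do not measure how robust a change is. The probes of the 36 genes had 0 outlier spots, 31 of the genes had 1 probe, and leaving out Ccl26 changes no other gene's value. Median scaling, no scaling and the series table shift all genes of a pair nearly alike. With normexp, 0 genes were called higher at 2 weeks (against 0.267% of all genes) and 1 (Ccl26) lower (against 0.188%). At 8 weeks 0 were then called higher (against 0.639%). The normexp offset of 50 adds to every signal and shrinks the ratios of dim spots. Over the settings, the log2 change at 8 weeks ran from 0.80 to 1.31 for Ccl12, 0.84 to 1.37 for Ccl8, 0.82 to 1.29 for Ccl5, 0.47 to 1.48 for Cxcl10, 0.32 to 2.11 for Ccl17 and -2.62 to -1.15 for Ccl11. At 2 weeks it ran from -2.14 to -0.87 for Ccl11 and from 0.13 to 1.14 for Ccl4. Normexp gave each value nearest 0. Where both arrays had to be well above background, 0 were higher (against 0.607% of all genes) and 1 (Ccl11) lower (against 0.368%) at 2 weeks. Between the sham pools 0 were then lower (against 0.156%). Without a filter on dim probes, 4 were lower at 8 weeks (Ccl11, Ccl28, Cxcl5 and Xcl1, against 4.04% of all genes), the median at 8 weeks over all 36 genes was -0.15, and 2 were higher between the sham pools (Ccl3 and Xcl1, against 3.21%). The genes named here other than Ccl11 were well above background on no array. At 1.5-fold, 2 were higher at 2 weeks (Ccl4 and Ccl8, against 4.81% of all genes) and 3 lower (Ccl11, Ccl26 and Cxcl14, against 2.38%), and between the sham pools 2 were higher (Ccl4 and Ccl7, against 2.66%) and 2 lower (Ccl26 and Cxcl10, against 1.62%). At 3-fold, 0 were higher at 2 weeks (against 0.786% of all genes) and 1 (Ccl17) at 8 weeks (against 1.13%). The sham level of Ccl17 was not well above background, and its fold is only known to be at least 2.51, so this call is not secure. With no scaling, 1 gene (Ccl4) was higher between the sham pools (against 1.36% of all genes). Leaving out Ccl26, chosen after seeing the data, gave 1 gene lower at 2 weeks (against 0.855% of all genes) and 0 between the sham pools (against 0.717%). The median log2 change of all genes at 8 weeks was -0.08 with the 75th percentile, 0.08 with no scaling, 0.00 with quantile or median scaling and -0.10 with the series table. No replicate could be left out. No paired analysis was possible because each group has 1 array and the labels carry no replicate numbers. Dim genes (Ccl4, Ccl17, and Ccl11 after TAC) are limited by their signal over background.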
